A study of Canis lupus with 20 samples.

Results

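The genes described here code for the proteasome and its activators in dog heart. They were chosen by symbol: every gene of the PSMA, PSMB, PSMC, PSMD, PSME, PSMF or PSMG series with a number after the letters, measured by a probe set that the annotation pairs with that symbol alone. This gave 44 genes with 89 probe sets, out of 15115 genes with 29254 single-symbol probe sets on an array of 43035. Each gene was followed through 1 probe set, the one with the highest mean over the 20 arrays, so no measured difference entered the choice of probe set. The gene family itself was chosen with earlier results of these data known. Of the 44 genes, 40 code for subunits, activators, an inhibitor or assembly factors of the proteasome and were bright enough to test, and the counts below are over these 40. The symbols of the genes PSMC3IP, a factor of meiotic recombination, and PSME3IP1, a protein that binds PSME3, match by name alone, and these were tested but not counted. PSMA8, an alpha subunit known from testis, and PSMB11, a beta subunit known from thymus, lay below the filter on dim probe sets. Their log2 signal was 1.64 to 1.94 and 1.39 to 1.58 over all 20 arrays. PSMB7, PSMC1, PSMD1, PSMD4, PSMD5 and PSMG4 have no single-symbol probe set and were not analysed here.

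The proteasome is the protease that breaks down proteins tagged with ubiquitin. Its core is a barrel of alpha rings, which gate the entry, around beta rings, which carry the cutting sites of PSMB5, PSMB6 and PSMB7. A regulator of a base, with ATPases that unfold the substrate, and a lid, which takes off the ubiquitin, caps the barrel. Interferon gamma is known to induce PSMB8, PSMB9 and PSMB10, which replace the cutting subunits in the immunoproteasome, and the PSME1 and PSME2 activator, and their products supply peptides for MHC class I. In heart muscle the system is known for the turnover of sarcomere proteins and for its part in growth and atrophy of the myocyte.

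The tissue was left atrium and left ventricle of normal dogs, taken 12 weeks after surgery, which was a right-sided uninephrectomy (1 kidney removed) or a sham procedure. Each chamber of each kind of dog formed a group, which made 4 groups of 5 Affymetrix canine arrays, 1 for each tissue sample. The operations were assigned to 6 dogs each, and age and sex of the dogs are not given in the sources used here. The comparisons ask how the chambers differ and what loss of a kidney does in each. All signals are deposited log2 values, on which a difference of 1 is a doubling. Differences are log2 differences ± standard error between groups of 5 arrays, and a gene was called, or is said to be higher or lower, at a Benjamini-Hochberg adjusted p under 0.05 over all 30047 probe sets tested with limma. The number of arrays limits the precision, and the median standard error of a member's difference was 0.08.

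The array medians lay between 2.33 and 2.39. The mean of the ventricular light chain MYL2 was 3.81 and 4.72 in the sham and uninephrectomized atrium and 14.7 and 14.6 in the ventricle, so the chambers match their labels. Group means of 7 cardiomyocyte markers lay between 13.3 and 13.6, and those of 7 fibroblast markers were 9.01 and 9.55 in the atrium and 8.07 and 8.12 in the ventricle. The 4 adipocyte markers averaged 7.72 and 7.34 in the atrium and 6.49 and 6.45 in the ventricle, but they did not go the same way. In both groups of dogs the means of ADIPOQ and FABP4 were above those of the ventricle in the atrium, and the means of LPL and PLIN1 were below. Of 10 lymphocyte markers 5 were under the filter, among them CD3D, CD3E and CD3G. A measure of RNA quality, the 3′ signal of the actin, GAPDH and EF1A control sets minus their mean 5′ and middle signal, averaged 4.54 ± 0.17 (SD, n = 5) in sham atrium, 4.37 ± 0.31 in uninephrectomized atrium, 4.26 ± 0.27 in sham ventricle and 3.90 ± 0.28 in uninephrectomized ventricle. This 3′ gap moves with both chamber and operation, and so do the tissue markers with the chamber. Their part in the results below was not tested, except that a fit with the 3′ gap as a covariate was made. Of 40 members, 4 and 8 changed sign in it between the chambers of sham and uninephrectomized dogs, and 10 and 16 changed sign after uninephrectomy in atrium and ventricle. Its values are given beside each call that ended or began with it and beside the main directions that turned. In bulk tissue fewer cells of a type and less RNA per cell cannot be told apart.

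Between the chambers most proteasome genes differed little, and a small number of subunits differed in the same direction in both groups of dogs. In sham dogs 7 of 40 members (17.5%) were called, against 22.8% of all 11423 genes tested. PSMB4 was higher in the atrium (12.0% of all genes were) and PSMA7, PSMD6, PSMD7, PSMD11, PSME3 and PSMG1 were lower (10.8% of all genes). In uninephrectomized dogs 8 of 40 (20%) were called, against 29.9% of all genes. There PSMB4 was again higher (16.2% of all genes), and PSMA1, PSMA7, PSMB10, PSMD2, PSMD6, PSMD11 and PSME3 were lower (13.7% of all genes). The share of members called was under that of all genes in both comparisons. The median size of the atrium minus ventricle difference, without its sign, was 0.09 in sham and 0.12 in uninephrectomized dogs over the members, and 0.16 and 0.18 over all genes tested. The median standard error was smaller too, at 0.08 for the members against 0.11 over all probe sets tested. Its part in the smaller differences was not tested.

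**Figure D1:**
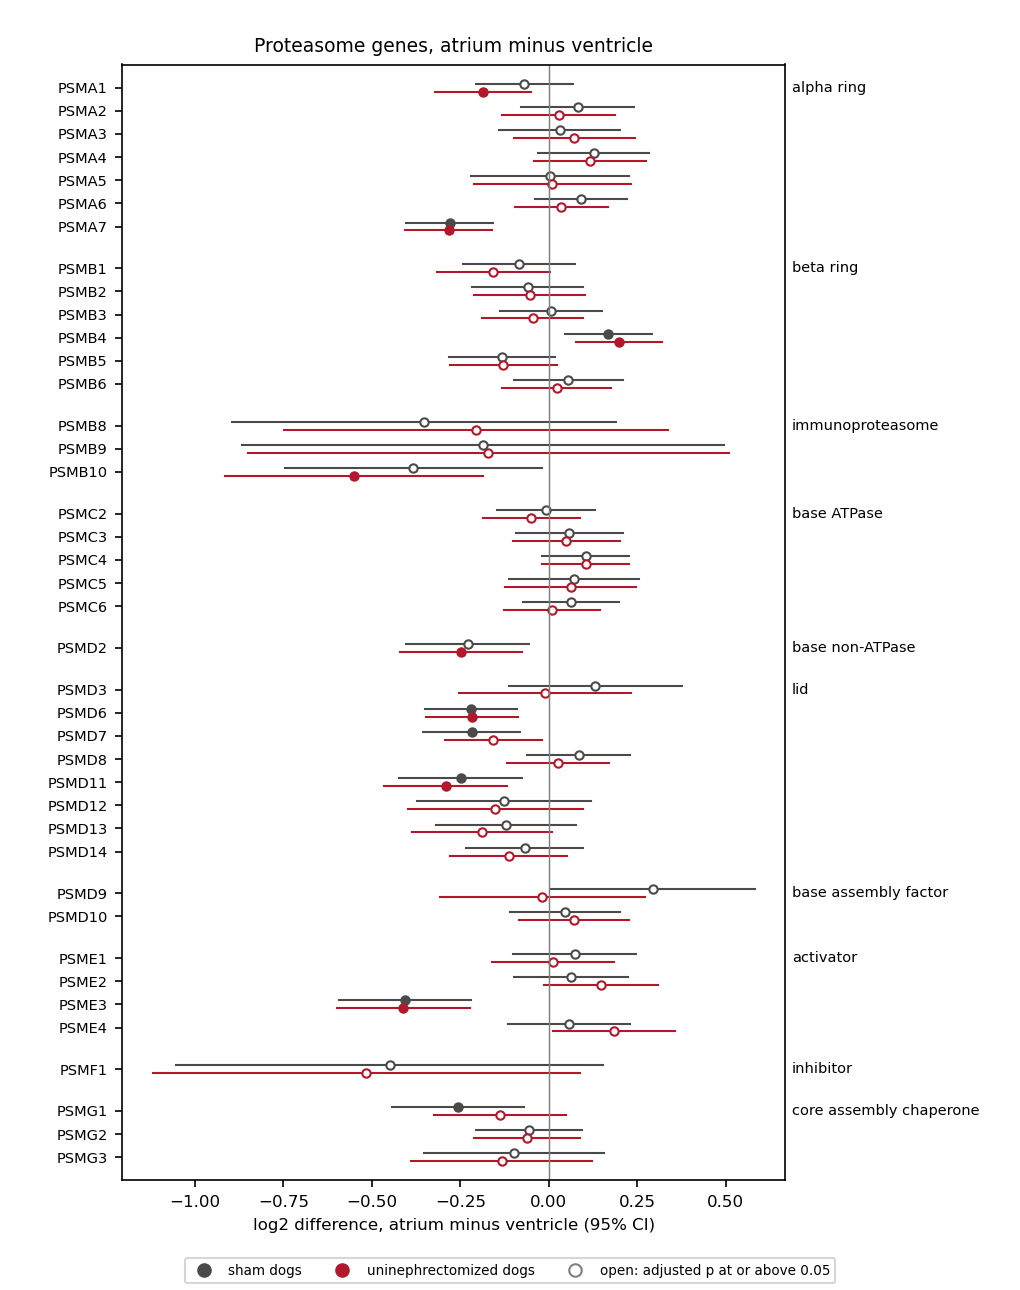
Log2 difference between atrium and ventricle (horizontal axis, with 95% confidence interval) for the 40 proteasome genes tested, grouped by role, in sham dogs (grey) and uninephrectomized dogs (red). Filled points are called; PSMA7 and PSME3 lie left of 0 in both groups of dogs and PSMB4 lies right of 0, while most other points lie near 0.

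The sham and uninephrectomized comparisons use different arrays. The difference had the same sign in both for 37 of 40 members (92.5%) and for 82.1% of all genes. It was within 0.1 of 0 in both for 15 members (37.5%) and for 20.5% of all genes. PSMA7, PSMB4, PSMD6, PSMD11 and PSME3 were called in both, which is 12.5% of the members against 18.8% of all genes, each in the same direction. All 2147 genes called in both also kept their direction. Whether the chamber difference itself changed with the operation was tested as the difference of the effects, which called 0 of 40 members and 0.00% of all genes with limma, and 0 members had an unadjusted p under 0.05 against 2.80% of all genes.

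Among the 7 alpha subunits, PSMA7 stood lower in the atrium. Its log2 signal was 11.78, 11.95, 11.94, 11.84 and 11.74 in the sham atrium and 12.15, 12.08, 12.21, 12.15 and 12.06 in the sham ventricle. After uninephrectomy it was 11.75, 11.78, 11.77, 11.82 and 11.95 in the atrium and 12.02, 12.11, 12.04, 12.13 and 12.19 in the ventricle. Every atrial array lay below every ventricular array in both groups of dogs. The difference was -0.28 ± 0.06 in sham dogs (1.21-fold, limma adjusted p = 0.0019) and -0.28 ± 0.06 in uninephrectomized dogs (1.22-fold, adjusted p = 0.00132). PSMA7 is an ordinary subunit of the alpha ring. PSMA2, PSMA3, PSMA4, PSMA5 and PSMA6 differed by between 0.00 and 0.13 in both groups of dogs, all positive and none called. In the fit with the 3′ gap as a covariate those directions did not hold: PSMA3 and PSMA5 were negative in sham dogs (-0.06 and -0.07), and in uninephrectomized dogs all but PSMA4 were, at -0.05 to -0.10, none of them called. PSMA7 was -0.33 and -0.37 in that fit. Over the 13 constitutive core subunits, alpha and beta, 8 were positive in sham and 7 in uninephrectomized dogs, and 4 and 2 with the covariate, with medians of -0.06 and -0.10. PSMA1 differed by -0.07 ± 0.07 in sham dogs (adjusted p = 0.505) and by -0.19 ± 0.07 in uninephrectomized dogs (adjusted p = 0.0402). Without any 1 of uninephrectomized atrial arrays 1, 2 or 4 or ventricular arrays 2, 3 or 5 PSMA1 was not called (adjusted p 0.0536 to 0.122). Nor was it with the 3′ gap as a covariate (-0.22, adjusted p = 0.058), with the arrays shifted to the same median (adjusted p = 0.0598) or with only the 2 groups compared (adjusted p = 0.0916). It was read from a probe set of a type that can also take up related transcripts.

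Of the 6 constitutive beta subunits tested only PSMB4, a structural subunit without a cutting site, was called. It was higher in the atrium, at 11.27, 11.43, 11.43, 11.41 and 11.33 in sham atrium and 11.12, 11.18, 11.22, 11.32 and 11.18 in sham ventricle. In uninephrectomized dogs the atrial arrays read 11.26, 11.26, 11.49, 11.36 and 11.42 and the ventricular arrays 11.17, 11.19, 11.10, 11.13 and 11.22. The 2 chambers overlapped in sham dogs through 1 ventricular array and did not overlap after uninephrectomy. The difference was 0.17 ± 0.06 (1.12-fold, limma adjusted p = 0.0465) and 0.20 ± 0.06 (1.15-fold, adjusted p = 0.016). With the 3′ gap as a covariate PSMB4 differed by 0.11 in both and was not called, with adjusted p of 0.157 and 0.234. Its sham call also ended without any 1 of 15 arrays, that is all but sham atrial array 1, uninephrectomized atrial arrays 1, 2 and 3 and sham ventricular array 4, with adjusted p between 0.0515 and 0.109. The cutting subunits PSMB5, with the chymotrypsin-like site, and PSMB6, with the caspase-like site, were not called. PSMB5 differed by -0.13 ± 0.07 in both groups of dogs and PSMB6 by 0.06 ± 0.07 and 0.02 ± 0.07. PSMB1, PSMB2 and PSMB3 lay between -0.16 and 0.01.

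In the regulator, the called subunits belonged to the lid, apart from PSMD2 of the base. Of 8 lid subunits, 6 were negative in sham and 7 in uninephrectomized dogs, with a median difference of -0.12 and -0.15. The number called was 3 in sham dogs (37.5%, against 22.8% of all genes) and 2 in uninephrectomized dogs (25%, against 29.9%), and lid and base were not tested against each other. All 5 ATPases of the base lay between -0.05 and 0.10, and none was called. A second PSMC4 probe set, with a mean of 6.26, was called in sham dogs, at 0.45 ± 0.12 (limma adjusted p = 0.0129), and not in uninephrectomized dogs, at 0.27 ± 0.12 (adjusted p = 0.112), and the mean of all PSMC4 sets differed by 0.22 in sham dogs (adjusted p = 0.0121). The ATPase PSMC5 was called in uninephrectomized dogs only in the fit with the 3′ gap as a covariate, at 0.24 (adjusted p = 0.0374). The signal of PSMD6, a scaffold subunit of the lid, was 9.91, 9.98, 10.11, 9.93 and 9.82 in sham atrium against 10.07, 10.11, 10.25, 10.26 and 10.16 in sham ventricle. Its values were 9.79, 9.68, 9.86, 9.82 and 9.91 in uninephrectomized atrium against 10.10, 9.94, 9.9995, 10.05 and 10.06 in the ventricle. The difference was -0.22 ± 0.06 in both groups of dogs (limma adjusted p = 0.0152 and 0.0129), and the chambers did not overlap after uninephrectomy.

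PSMD11, a lid subunit known to promote assembly of the full particle, differed by -0.25 ± 0.08 in sham dogs (limma adjusted p = 0.0396) and by -0.29 ± 0.08 in uninephrectomized dogs (adjusted p = 0.0134). It spread widely in the sham atrium, at 9.10, 8.67, 9.04, 8.76 and 8.64, against 9.18, 9.09, 9.05, 9.14 and 8.99 in the sham ventricle. A second, dim PSMD11 probe set, with a mean of 2.97, was called in the opposite direction in sham dogs (0.23 ± 0.07, adjusted p = 0.0366) and not in uninephrectomized dogs (-0.07 ± 0.07). The mean of both PSMD11 sets differed by -0.01 in sham dogs. With the 3′ gap as a covariate PSMD11 was not called in either group of dogs, with adjusted p of 0.0996 and 0.105. Its sham call ended without sham atrial array 2, 4 or 5 or sham ventricular array 1, 2, 3 or 4 (adjusted p 0.0524 to 0.113). PSMD7, the partner of the deubiquitinase PSMD14 in the lid, is named here because it was called. It differed by -0.22 ± 0.07 in sham dogs (adjusted p = 0.0221) and -0.16 ± 0.07 in uninephrectomized dogs (adjusted p = 0.083). Without sham atrial array 2 or 5 or sham ventricular array 3 its sham call ended (adjusted p 0.0511 to 0.0671). The other PSMD7 probe set was called in both, at -0.39 ± 0.10 and -0.29 ± 0.10. PSMD14 itself, which removes the ubiquitin chain, differed by -0.07 ± 0.08 and -0.11 ± 0.08 and was not called. PSMD2, a scaffold of the base, is named for the same reason, at -0.23 ± 0.08 (adjusted p = 0.0566) and -0.25 ± 0.08 (adjusted p = 0.0319), and at -0.12 with the 3′ gap as a covariate in uninephrectomized dogs (adjusted p = 0.348). That call also ended without uninephrectomized atrial array 2 or 4 or ventricular array 2, 3 or 4, with adjusted p between 0.0612 and 0.0919.

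PSME3, the activator known as PA28 gamma or REG gamma, which acts in the nucleus without ATP, had the largest called difference in sham dogs. Its signal was 8.10, 8.28, 8.35, 8.31 and 7.90 in sham atrium and 8.44, 8.62, 8.82, 8.64 and 8.43 in sham ventricle. After uninephrectomy it was 8.11, 7.996, 8.13, 8.11 and 8.31 in the atrium and 8.51, 8.61, 8.48, 8.58 and 8.54 in the ventricle. No atrial array reached the lowest ventricular array in either group of dogs. PSME3 differed by -0.41 ± 0.09 in both (1.33-fold, limma adjusted p = 0.00288 and 0.00194). The other activators did not follow it: PSME1 differed by 0.07 ± 0.08 and 0.01 ± 0.08, PSME2 by 0.06 ± 0.08 and 0.15 ± 0.08, and PSME4, the activator PA200, by 0.06 ± 0.08 and 0.18 ± 0.08, none of them called. PSME3IP1 differed by 0.15 ± 0.08 and 0.14 ± 0.08 and PSMC3IP by 0.07 ± 0.12 and -0.03 ± 0.12, also not called.

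Atrial and ventricular arrays did not overlap in sham dogs for 2 of 40 members (5.00%), PSMA7 and PSME3, against 15.8% of all genes. In uninephrectomized dogs they did not overlap for 6 of 40 (15%), PSMB4 above and PSMA7, PSMD6, PSMD7, PSMD11 and PSME3 below, against 23.5% of all genes. The sham arrays of equal number pair across the chambers. With the sham arrays alone and the number as a block, 2 of the 7 sham calls were left, PSMA7 and PSME3. The other 5 had adjusted p between 0.0713 and 0.121 in that fit. With the arrays of all groups fitted together and only the sham numbers as a random block, all 7 sham calls were kept. These block fits were chosen after seeing the data. Without sham atrial array 5 or sham ventricular array 3 the sham count was 3, without sham atrial array 2 or 4 or sham ventricular array 2 it was 4, and the uninephrectomized count was 5 without atrial array 2 or ventricular array 3. Under every alternative tried, PSMA7 and PSME3 were called in both groups of dogs.

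**Figure D2:**
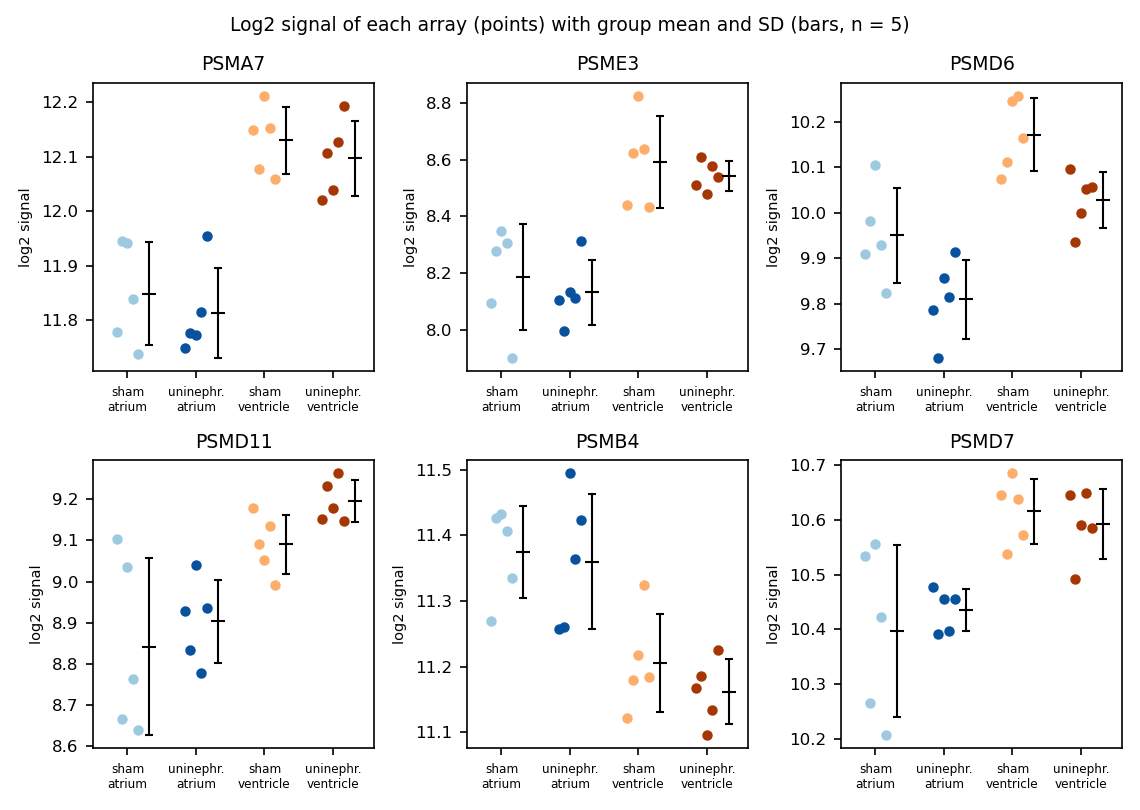
Log2 signal (vertical axis, its range set per gene) of each array for PSMA7, PSME3, PSMD6, PSMD11, PSMB4 and PSMD7 in the 4 groups, with the group mean and SD (bars, n = 5). For PSMA7 and PSME3 all 10 atrial points lie below all 10 ventricular points, and for PSMB4 the atrial points lie higher with 1 sham ventricular array at 11.32 among them.

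Of 5 factors that build the particle, 1 was called in sham dogs (20%, against 22.8% of all genes) and 0 in uninephrectomized dogs (29.9% of all genes). PSMG1, a chaperone of alpha ring assembly, was 9.47, 9.70, 9.62, 9.52 and 9.50 in sham atrium and 9.52, 9.79, 10.06, 9.89 and 9.84 in sham ventricle. The groups overlapped, and the difference was -0.26 ± 0.09 in sham dogs (limma adjusted p = 0.046) and -0.14 ± 0.09 in uninephrectomized dogs (adjusted p = 0.269). The sham call ended without any 1 of 13 arrays, that is all but sham atrial array 2, uninephrectomized atrial arrays 2 and 5, sham ventricular array 1 and uninephrectomized ventricular arrays 2, 4 and 5, with adjusted p between 0.0502 and 0.123, the highest without sham ventricular array 3. In the fit with the 3′ gap as a covariate PSMG1 was called in uninephrectomized dogs too, at -0.33 ± 0.08 (adjusted p = 0.0066). Its partner PSMG2 differed by -0.06 ± 0.07 in both, and PSMG3, a dim set with a mean of 3.2, by -0.10 ± 0.12 and -0.13 ± 0.12. PSMD9, a chaperone of the base, differed by 0.29 ± 0.14 (adjusted p = 0.143) and -0.02 ± 0.14. Sham atrial array 2 stood out for PSMD9, and without it the sham difference was 0.16 ± 0.12. PSMD10, or gankyrin, differed by 0.05 ± 0.07 and 0.07 ± 0.07. The inhibitor PSMF1, or PI31, differed by -0.45 ± 0.29 and -0.52 ± 0.29, and was not called. PSMF1 differed by -0.04 in sham and 0.16 in uninephrectomized dogs with the 3′ gap as a covariate.

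The immunoproteasome subunits were the least even members. Their standard deviation within groups was 0.549 for PSMB9, 0.437 for PSMB8 and 0.289 for PSMB10, while the 13 constitutive core subunits lay between 0.0767 and 0.169 and the 14 regulator subunits between 0.0774 and 0.191. Only PSMF1, at 0.487, was as variable. PSMB10, the trypsin-like replacement subunit, differed between the chambers of uninephrectomized dogs by -0.55 ± 0.17 (1.46-fold, limma adjusted p = 0.0236) and of sham dogs by -0.38 ± 0.17 (adjusted p = 0.131). In uninephrectomized dogs its values were 7.002, 6.68, 7.26, 7.01 and 6.87 in the atrium and 7.76, 7.40, 7.68, 7.20 and 7.54 in the ventricle, overlapping by 1 array on each side. Its call ended without uninephrectomized atrial array 2 or 5 or ventricular array 1 or 3, with adjusted p between 0.0501 and 0.0651. With the 3′ gap as a covariate PSMB10 was called in both groups of dogs, at -0.54 ± 0.17 in sham (adjusted p = 0.0301) and -0.81 ± 0.19 in uninephrectomized dogs (adjusted p = 0.00525). PSMB8 differed by -0.35 ± 0.26 and -0.21 ± 0.26 and PSMB9 by -0.19 ± 0.32 and -0.17 ± 0.32, not called.

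**Figure D3:**
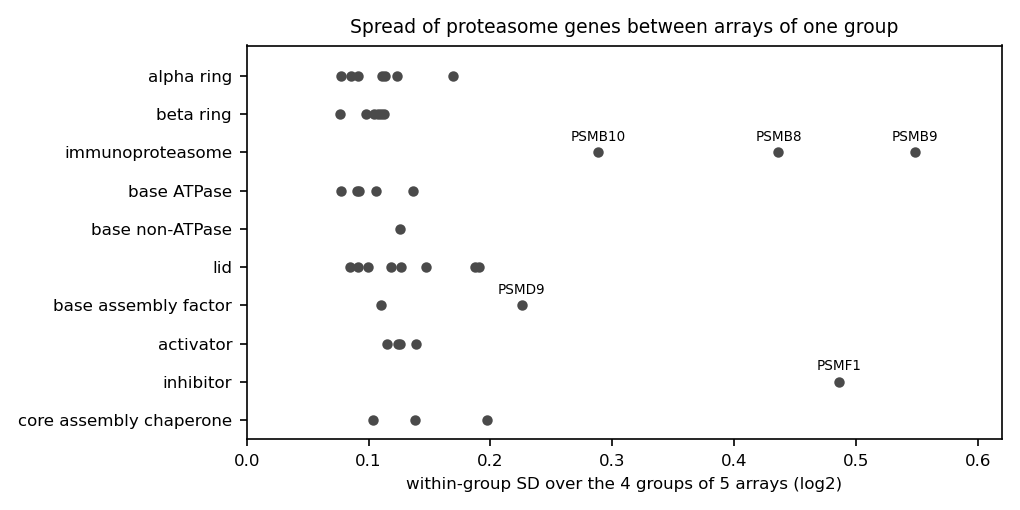
Standard deviation of log2 signal within groups (horizontal axis), pooled over the 4 groups of 5 arrays, for each of the 40 proteasome genes tested, by role. PSMB10, PSMB8, PSMB9 and PSMF1 lie between 0.289 and 0.549, PSMD9 is at 0.226, and all other members lie under 0.2.

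Some single arrays stood at the ends of that spread, but how much of it any array carried was not computed. For PSMB9 the SD was 0.79 in uninephrectomized atrium and 0.61 in uninephrectomized ventricle, against 0.29 in sham atrium and 0.35 in sham ventricle. Sham ventricular array 3 had the highest signal of all 20 arrays for 12 of the 42 genes tested, PSMB8 at 7.24, PSMB9 at 8.70 and PSMB10 at 8.21 among them, and the lowest for 6. MX1, an antiviral gene that type I interferon induces, was at 10.07 in that array, the highest of 20. Other genes of interferon signalling went both ways there. ISG15 (11.62) and GBP1 (11.16) were also the highest of 20, while IRF1 (7.61) and the receptor IFNGR1 (7.70) were the lowest of 20. In sham atrial array 1, which had the lowest PSMB8 (5.07), MX1 was at 7.31, the lowest of 20. Sham arrays of equal number were taken as pairs, and the partners of these arrays stood at the same ends in part. Sham atrial array 3 had the highest PSMB8 (6.59), PSMB9 (8.25) and MX1 (9.43) of its group, but not the highest PSMB10 (7.37). Sham ventricular array 1 had the lowest PSMB8 (5.91) and MX1 (7.76) of its group, but not the lowest PSMB9 (8.01). In each of the 4 groups the array with the highest MX1 also had the highest PSMB8 and PSMB9. Uninephrectomized atrial array 1 had the lowest PSMB9, 6.40, with MX1 at 8.15, which was also low in its group. Below the top arrays the genes did not always go together. Uninephrectomized atrial array 2 had the lowest MX1 of its group, 8.11, with PSMB9 at 8.07. Uninephrectomized ventricular array 2 had MX1 at 9.92 with PSMB9 at 7.32, below the mean of its group. Whether these genes vary together was not tested. In the RefSeq gene order of the grey wolf assembly mCanLup2.hap1, TAP1, the peptide transporter, lies between PSMB9 and PSMB8. TAP1 differed between the chambers by -0.21 in sham dogs (adjusted p = 0.332) and -0.29 in uninephrectomized dogs (adjusted p = 0.149).

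After uninephrectomy no proteasome gene was called in either chamber. The atrial and ventricular comparisons are not independent of each other, because the sham arrays of equal number were taken as pairs. The same direction in both chambers is therefore not a replication. Limma called 0 of 40 members in the atrium and 0 of 40 in the ventricle, and 0.00% of all genes in each. At an unadjusted p under 0.05 there were 2 members in the atrium (PSME2 and PSMD6), or 5.00% against 6.62% of all genes, and 4 in the ventricle (PSME2, PSMD6, PSMD8 and PSMG1), or 10% against 6.22%. The median difference over the members was -0.04 in the atrium and -0.03 in the ventricle, and over all genes -0.01 in each. In the fit with the 3′ gap as a covariate the members' median was -0.01 in the atrium and 0.03 in the ventricle. For 36 of 40 members in each chamber the 95% interval lay within 0.5 of 0 on the log2 scale, that is within 1.41-fold in either direction. The exceptions include PSMB9, whose interval ran from -1.02 to 0.34 in the atrium and from -1.03 to 0.33 in the ventricle.

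**Figure D4:**
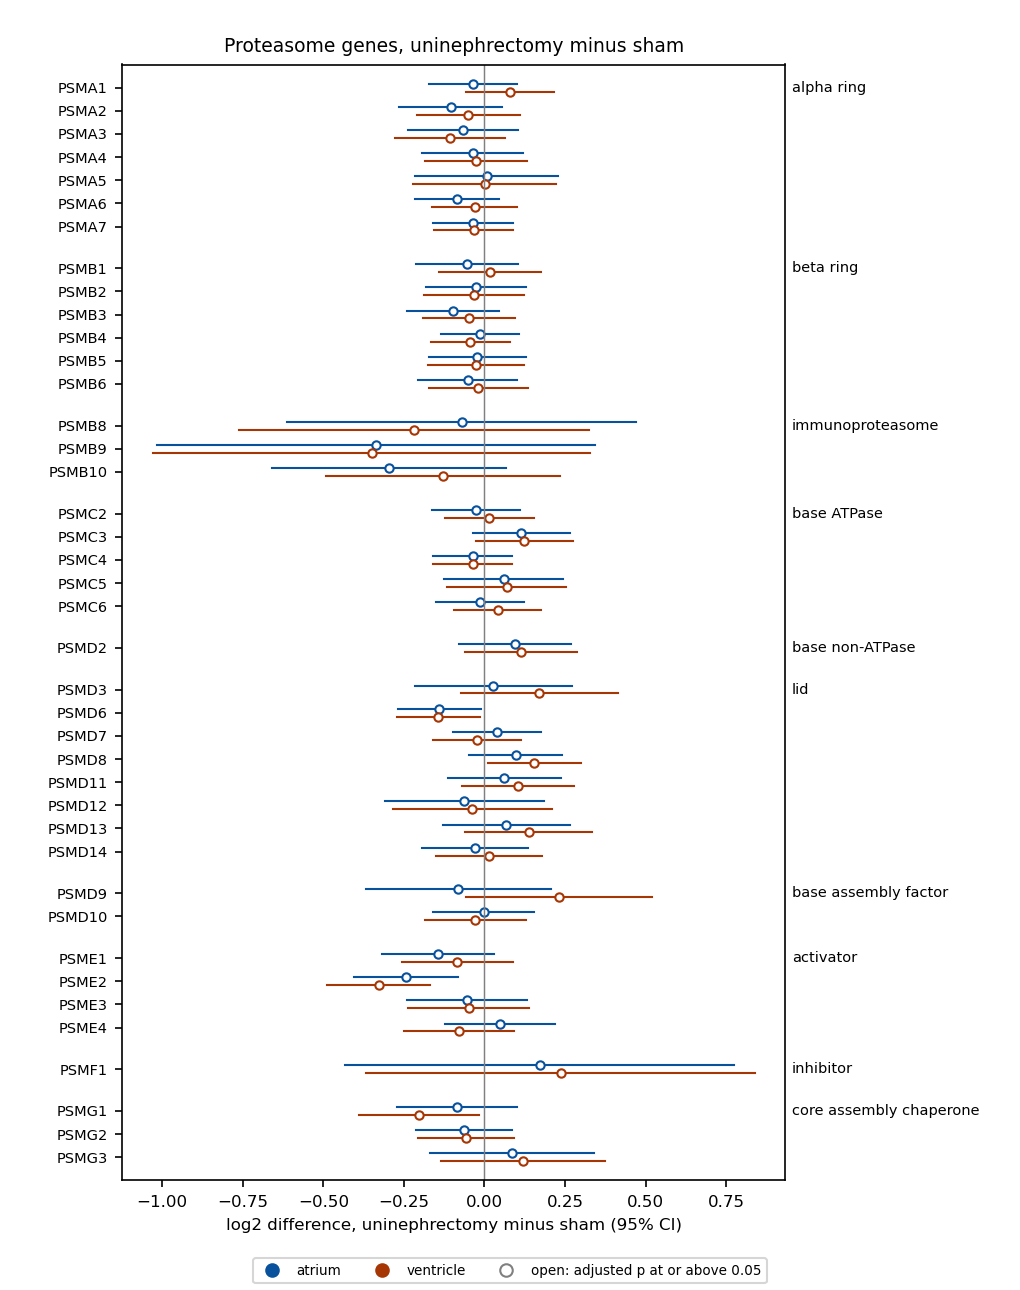
Log2 difference between uninephrectomized and sham dogs (horizontal axis, with 95% confidence interval) for the 40 proteasome genes tested, by role, in the atrium (blue) and the ventricle (brown). All points are open, that is not called; PSME2 lies furthest from 0 in units of its error, at -0.24 and -0.33, and the immunoproteasome subunits and PSMF1 have the widest intervals.

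PSME2, the beta subunit of the PA28 activator that binds the core without ATP, had the smallest p of the members in both chambers. It read 9.38, 9.51, 9.61, 9.54 and 9.57 in sham atrium and 9.14, 9.38, 9.34, 9.25 and 9.29 in uninephrectomized atrium. In the ventricle it read 9.27, 9.30, 9.71, 9.50 and 9.51 in sham dogs and 9.15, 9.13, 9.22, 9.06 and 9.09 after uninephrectomy. The ventricular groups did not overlap, and the atrial groups met at 9.38. The difference was -0.24 ± 0.08 in the atrium (unadjusted p = 0.00521, limma adjusted p = 0.637) and -0.33 ± 0.08 in the ventricle (unadjusted p = 0.000423, adjusted p = 0.48), so it did not pass the test. It was the only member of 40 whose ventricular groups did not overlap (2.50%, against 0.910% of all genes), and no member's atrial groups were apart (0.928% of all genes).

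A second PSME2 probe set of nearly the same brightness ran the same way. It lay between 9.22 and 9.45 in sham atrium and between 9.15 and 9.20 in uninephrectomized atrium, and between 9.20 and 9.42 in sham ventricle and 9.10 and 9.19 in uninephrectomized ventricle. Its groups did not overlap in either chamber, and it differed by -0.17 ± 0.06 and -0.18 ± 0.06 (limma adjusted p = 0.679 and 0.61). With 1 probe set per gene, 0.928% of all genes did not overlap in the atrium and 0.910% in the ventricle. The share over all probe sets, to which this second set belongs, was not computed. The last PSME2 set, a dim one, with a mean of 4.37, differed by 0.07 ± 0.18 and -0.22 ± 0.18. With 1 array left out in turn, the PSME2 difference stayed between -0.28 and -0.21 in the atrium and between -0.38 and -0.27 in the ventricle. It was -0.21 and -0.27 with the 3′ gap as a covariate, and the mean of all 3 PSME2 sets differed by -0.11 and -0.24 (adjusted p = 0.821 and 0.643). Its difference did not differ detectably between the chambers (0.09 ± 0.11, adjusted p = 1.00).

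PSME1, the alpha subunit of the same activator, differed by -0.14 ± 0.08 in the atrium and -0.08 ± 0.08 in the ventricle, with adjusted p of 0.777 and 0.864. In the RefSeq order of the assembly mCanLup2.hap1 only EMC9 lies between PSME1 and PSME2. PSME3 differed by -0.05 ± 0.09 in both chambers, and PSME4 by 0.05 ± 0.08 and -0.08 ± 0.08. The 3 immunoproteasome subunits were negative in both chambers, at -0.07 ± 0.26 and -0.22 ± 0.26 for PSMB8, -0.34 ± 0.32 and -0.35 ± 0.32 for PSMB9, and -0.30 ± 0.17 and -0.13 ± 0.17 for PSMB10. None was called, and each difference was smaller than 2 of its standard errors. In the ventricle these values rested in part on sham array 3. Its 3′ gap of 4.57 was the highest of all ventricular arrays, and the part of RNA quality in its values was not tested. Without that array PSMB8 differed by -0.01 ± 0.24, PSMB9 by -0.19 ± 0.34, PSMB10 by 0.01 ± 0.16, PSME1 by -0.04 ± 0.09 and PSME2 by -0.27 ± 0.07 in the ventricle. With the 3′ gap as a covariate PSMB8 was positive in both chambers (0.07 in each) and PSMB10 in the ventricle (0.07), while PSMB9 was -0.27 in the atrium and -0.21 in the ventricle.

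**Figure D5:**
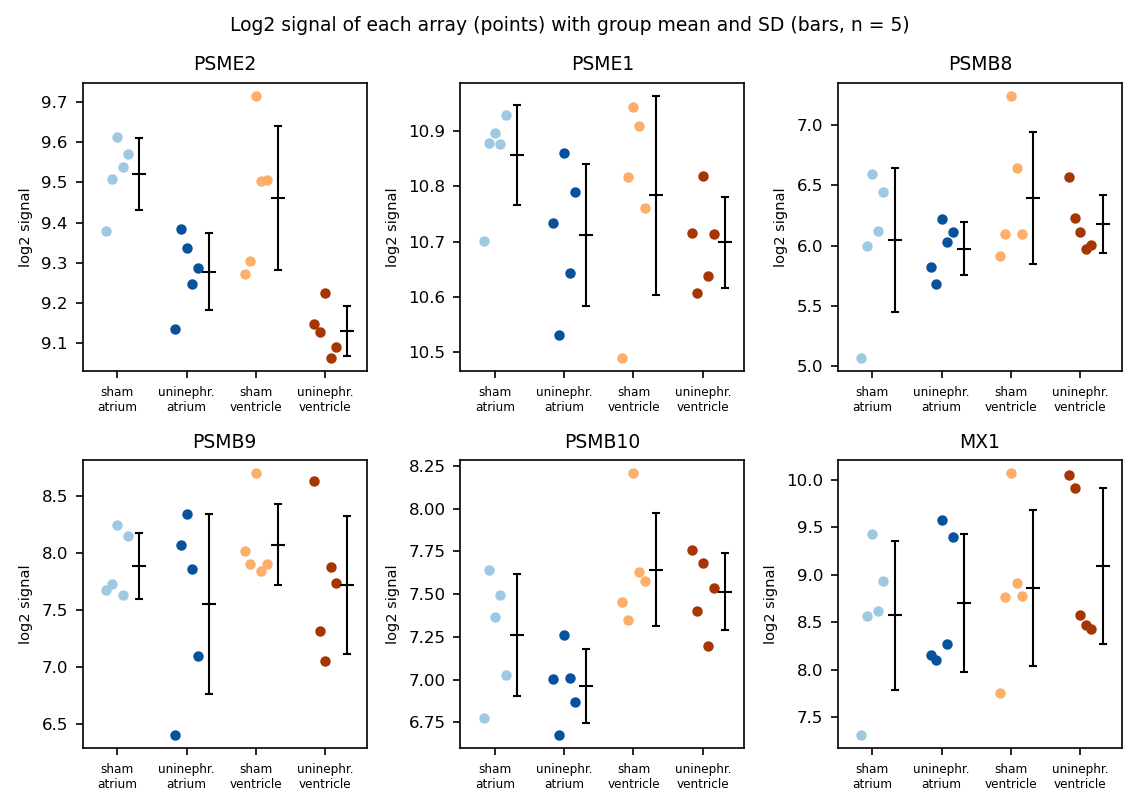
Log2 signal (vertical axis, its range set per gene) of each array for PSME2, PSME1, the immunoproteasome subunits PSMB8, PSMB9 and PSMB10, and the interferon-induced gene MX1, with group mean and SD (bars, n = 5). The PSME2 points of the uninephrectomized ventricle lie at 9.06 to 9.22, below all sham ventricular points, while the groups of the other genes overlap; sham ventricular array 3 is the top point of PSMB8, PSMB9, PSMB10 and MX1.

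The constitutive core differed little. Of 13 core subunits 12 had a negative difference in the atrium and 10 in the ventricle, with medians of -0.04 and -0.03 and none called. With the 3′ gap as a covariate 9 were negative in the atrium and 1 in the ventricle, with medians of -0.01 and 0.05, so the ventricular direction turned. The cutting subunits PSMB5 and PSMB6 differed by -0.02 ± 0.07 and -0.05 ± 0.07 in the atrium and by -0.03 ± 0.07 and -0.02 ± 0.07 in the ventricle. PSMA7 and PSMB4, which differed between the chambers, differed by -0.04 ± 0.06 and -0.01 ± 0.06 after uninephrectomy in the atrium and by -0.03 ± 0.06 and -0.04 ± 0.06 in the ventricle.

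Of 14 regulator subunits 8 had a positive difference in the atrium and 10 in the ventricle. PSMD6 was the exception by its p, at -0.14 ± 0.06 in the atrium (unadjusted p = 0.0358, limma adjusted p = 0.735) and -0.14 ± 0.06 in the ventricle (unadjusted p = 0.0327, adjusted p = 0.72). Its sham and uninephrectomized arrays overlapped in both chambers, and with the 3′ gap as a covariate the difference was -0.11 and -0.08. The ATPase PSMC3 differed by 0.11 ± 0.07 and 0.12 ± 0.07, and the lid subunit PSMD8 by 0.10 ± 0.07 and 0.15 ± 0.07 (unadjusted p in the ventricle 0.0378, adjusted p = 0.73). PSMG1 differed by -0.08 ± 0.09 and -0.20 ± 0.09 (unadjusted p in the ventricle 0.0343, adjusted p = 0.72). PSMD9 had the largest difference between the chambers' effects, at -0.08 ± 0.14 in the atrium and 0.23 ± 0.14 in the ventricle, and that difference was not called. PSMF1 differed by 0.17 ± 0.29 and 0.24 ± 0.29, and by -0.08 and -0.29 with the 3′ gap as a covariate, and PSME3IP1 by 0.15 ± 0.08 in each chamber.

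Other genes of the ubiquitin pathway were taken from a list of 40, of which 30 were tested. In each group of dogs 6 of these were called between the chambers (20%, against 22.8% of all genes in sham and 29.9% in uninephrectomized dogs), 2 higher and 4 lower in the atrium. PAAF1, which binds the base ATPases and restrains assembly of the full particle, was 1.82 ± 0.22 higher in the atrium of sham dogs (3.53-fold, limma adjusted p = 1.05e-05) and 1.92 ± 0.22 in uninephrectomized dogs (adjusted p = 4.43e-06). PAAF1 read 7.48 to 8.18 in sham atrium and 5.38 to 6.81 in sham ventricle, with no overlap. RPS27A, a source of ubiquitin, was 0.29 and 0.40 higher. Lower in the atrium of both were TRIM63, the muscle ubiquitin ligase MuRF1 (-0.54 and -0.55), UCHL5, a deubiquitinase of the base (-0.24 and -0.26), and the ligase MDM2 (-0.25 and -0.20). AKIRIN2, which carries proteasomes into the nucleus, was lower in sham dogs (-0.33), and UBA6, a ubiquitin-activating enzyme, in uninephrectomized dogs (-0.38). After uninephrectomy 0 of these 30 were called in either chamber with limma, as were 0.00% of all genes, and 2 in each (6.67%) had an unadjusted p under 0.05, against 6.62% of all genes in the atrium and 6.22% in the ventricle. NFE2L1, the factor that induces proteasome genes when the proteasome is inhibited, differed by 0.03 in the atrium and 0.02 in the ventricle.

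Of a list of 30 genes for class I presentation and interferon signalling 23 were tested. In sham dogs 4 (17.4%, against 22.8% of all genes) were called between the chambers, IRF1, IFNGR2 and JAK1 higher in the atrium (0.47, 0.59 and 0.56) and the chaperone CANX lower (-0.56). In uninephrectomized dogs 6 were called (26.1%, against 29.9% of all genes), 3 higher and 3 lower, with IFNGR2 at 0.64, JAK1 at 0.66 and CANX at -0.51. After uninephrectomy 0 of 23 were called in either chamber with limma, and at an unadjusted p under 0.05 there were 1 in the atrium (4.35%, against 6.62% of all genes) and 2 in the ventricle (8.70%, against 6.22%). TAP1 differed by 0.01 and 0.09, B2M by -0.08 and -0.01 and MX1 by 0.13 and 0.23. Interferon gamma itself was under the filter.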

How the data were processed

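RNA extracted with Trizol was labelled from 100 ng per sample with the Affymetrix IVT Express kit, per the labels' protocols. The authors deposited 1 table of log2 signal, with values from 0.43 to 15.0; their summarization and normalization are not given in the sources used, and the values were taken as deposited. Of 43035 probe sets 111 controls and the 30% of the rest with the lowest mean (log2 under 1.87) were left out, leaving 30047, which cover 11423 genes with 1 symbol. Symbols came from GEO's platform annotation: 29264 probe sets have 1 symbol (10 of them controls, left out of the 29254 used), 439 several and 13332 none; all 44 symbols occur in the RefSeq gene table. A fit of all 20 arrays with limma 3.58.1 in R 4.3.3 (lmFit, eBayes, two-sided, 16 residual degrees of freedom) gave 5 contrasts: uninephrectomy against sham in each chamber, the difference between the 2 chambers' effects, and atrium minus ventricle in each group of dogs. The fit was tested on simulated data.

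The members and gene lists were chosen with earlier results of these data known. Named are the immunoproteasome, cutting, activator and inhibitor genes, members called in both chamber comparisons, and those with the smallest p in each direction per contrast; PSMD2, PSMD7 and others beyond that were named after their values were seen. Levels of different probe sets were not compared.

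Equal replicate numbers in the labels were checked from deviations from group means. Sham atrial and ventricular arrays of equal number correlated by 0.463, 0.226, 0.373, 0.295 and 0.209 and were taken as pairs, a pairing that comes from the data. In uninephrectomized dogs equal numbers correlated by -0.24 to 0.11 and were not taken as pairs; the highest correlation with another number was 0.167 to 0.536, and whether other numbers share a dog is not known. The labels do not name the dogs, so p-values measure the spread between these samples.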

Additional observations from a re-analysis of the deposited data

Results flagged for a closer look

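Of 84 sets of 5 arrays (21 named genes in 4 groups), 3 held an array apart from the rest of its group by the criterion for outlying values, a gap to the next array above 0.71 of the group's range. Chance alone gives about 1 in 20. PSMB9 was 8.70 in sham ventricular array 3, where the next array was at 8.01. PSMD9 was 5.31 in sham atrial array 2, where the next was at 4.72. PSME1 was 10.7 in sham atrial array 1, the lowest of its group, where the next was at 10.9.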

How the results depend on the processing

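For the members named, 2161 values were recomputed under alternatives: 2028 kept their direction and their side of the threshold, 84 lost the call, 10 gained it and 39 changed sign, none of which had an adjusted p under 0.475. The count of members called after uninephrectomy was 0 under every alternative run. Between the chambers of sham dogs 7 members were called, and 2 with only the 2 groups compared, 2 with the replicate block in the sham arrays alone (chosen after seeing the data), and 3 to 7 with 1 array left out. It was 4 without sham atrial array 2 or 4 or ventricular array 2, and 3 without sham atrial array 5 or ventricular array 3. In uninephrectomized dogs 8 were called, and 5 to 8 with 1 array left out, 5 without atrial array 2 or ventricular array 3. With the replicate block over all arrays, 6 were called in each group of dogs as a fixed term and 8 in each as a random term, whose estimated correlation was 0.0933. This block also joins uninephrectomized arrays of equal number, which were not taken as pairs. It therefore cannot check the uninephrectomized counts, and the correlation mixes both groups of dogs. With only the sham numbers as a random block, chosen after seeing the data, all 7 sham calls were kept. The sham call of PSMB4 was kept in 12 of 32 alternatives and that of PSMG1 in 12, of PSMD11 in 21, of PSMD7 in 26 and of PSMD6 in 30. The fixed block could not be fitted for the effect of the operation within a chamber, and the comparison of 2 groups does not apply to the difference of effects. Where a call was lost, the cause was not tested. With 5 arrays per group, small differences of dim or variable members such as PSMF1 and PSMB9 could not be resolved.

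The 3′ gap as a covariate brought the effect of uninephrectomy in the atrium to 0.013 for PSMB5, 0.066 for PSMB8 and -0.082 for PSMF1, and in the ventricle to 0.047 for PSMB5, 0.065 for PSMB6, 0.066 for PSMB8, 0.068 for PSMB10, 0.046 for PSME3 and -0.29 for PSMF1. It brought atrium minus ventricle to -0.0096 for PSMB6 in sham dogs, and in uninephrectomized dogs to -0.086 for PSMB6, -0.064 for PSME1 and 0.16 for PSMF1. With the mean of all probe sets of a gene, the ventricular effect of uninephrectomy became 0.00049 for PSMB5 and 0.20 for PSME4, and atrium minus ventricle became -0.0064 for PSME1 and -0.061 for PSME4 in sham dogs and -0.079 for PSME1 in uninephrectomized dogs. With 1 array left out, the effect of uninephrectomy ranged in the atrium from -0.072 to 0.023 for PSMB5, -0.089 to 0.0097 for PSMB6, -0.32 to 0.065 for PSMB8 and -0.012 to 0.079 for PSME4. In the ventricle it ranged from -0.20 to 0.011 for PSMB10, -0.057 to 0.0033 for PSMB5, -0.052 to 0.00042 for PSMB6 and -0.089 to 0.0093 for PSME3. Atrium minus ventricle ranged from -0.00061 to 0.11 for PSME1 in sham dogs, and in uninephrectomized dogs from -0.015 to 0.084 for PSMB6, -0.37 to 0.12 for PSMB9 and -0.025 to 0.057 for PSME1. The cause of these changes of sign was not tested.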
